A study of Mus musculus with 2 samples.

Results

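Of 9078 quality-filtered cells in the pool, 274 were T cells in which the T cell receptor (TCR) library held exactly 1 productive beta chain and exactly 2 productive alpha chains (dual-alpha cells). Among the quality-filtered cells, members were chosen by the contigs of the TCR library alone. The number of alpha contigs and their UMIs are therefore no finding. The pool held TCR-β-positive T cells that were sorted, on day 9 after inoculation, from tumors of 2 kinds, B16 and B16–IL-33, in mice of the C57BL/6 background (C57BL/6J wherever the study names the host strain). B16 is a mouse melanoma line, and B16–IL-33 is the same line engineered to secrete the cytokine IL-33. Tumors were labelled with hashtag antibodies and then pooled, so gene expression, hashtags and TCRs were each read in 1 library. There were 4 hashtags, 2 for each kind of tumor, and which animals or tumors each tag marked is not given in the sources used here, nor are the age and sex of the mice. Dual-alpha and single-alpha cells were compared within this 1 pool without a test, and all intervals below are at 95% and cover counting error only. The cells compared with them were 2801 cells with 1 beta and 1 alpha chain (single-alpha cells).

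A productive chain is a rearranged receptor gene that is in frame and has no stop codon. In a developing T cell the beta locus is rearranged first and is under strict allelic exclusion, so that one beta chain is usually expressed. The alpha locus is rearranged on both chromosomes, with little exclusion, and rearrangement goes on until a receptor is positively selected. Each further round on a chromosome joins a more upstream V segment to a more downstream J segment. A mature T cell can therefore carry a pair of productive alpha chains, and both may pair with the beta chain at the surface. In a droplet library, the same finding is also made where a barcode holds more than 1 cell or takes up free RNA.

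Of 7857 barcodes of the TCR library, 6665 were also in the gene expression library. A total of 416 had 1 productive beta and 2 productive alpha contigs, and 377 of them were in the gene expression library. Of these, 65 had more than 2500 detected genes and 38 had 5% or more mitochondrial UMIs (unique molecular identifiers, 1 for each captured RNA molecule). The remaining 274 cells, all of them also in the hashtag library, had up to 2498 detected genes and up to 4.92% mitochondrial UMIs, and the nearest barcodes outside had 2511 genes and 5.14%. No barcode held more than 2 productive alpha contigs. The 274 cells had 262 distinct beta chains and 266 distinct pairs of alpha chains, so nearly every member was a different clone. They were 8.91% (7.93 to 9.97; exact Clopper-Pearson) of the 3075 cells with 1 beta and 1 or 2 alpha chains, and 5.03% of the 5448 cells with any productive chain.

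The label T cell was borne out by the gene expression library. Cd3e was detected in 261, Cd3d in 259 and Cd3g in 254 of the 274 cells. Cd3e reached 1070 CPM (UMIs of the gene scaled to the summed UMIs of the group) in dual-alpha against 962 CPM in single-alpha cells. Transcripts of the recombinase genes Rag1 and Rag2 were at 0 UMIs in both groups, and Dntt, which encodes the enzyme that adds untemplated bases at the joins, had 0 UMIs in dual-alpha cells and 1 UMI in single-alpha cells. A count of 0 allows up to 3 UMIs.

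The most direct view of a dual-alpha clone is the same pair of alpha chains found in more than 1 cell together with the same beta chain. There were 7 such pairs, found in 15 of the 274 cells. They are printed here as CDR3 nucleotides, the stretch that spans the join, from 5′ to 3′. Capitals mark bases that were matched by neither the germline V nor the germline J segment of GENCODE vM21, that is, candidates for bases added at the join and, in beta chains, for the D segment. A V name with a plus sign is as the contig table gives it.
pair 1 first alpha, TRAV4D-4 and TRAJ6: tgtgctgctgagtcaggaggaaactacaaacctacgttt
pair 1 second alpha, TRAV7N-4 and TRAJ2: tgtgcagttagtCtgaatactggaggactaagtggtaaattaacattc
pair 1 beta, TRBV16 and TRBJ2-5: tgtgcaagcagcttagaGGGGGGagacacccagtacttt
pair 2 first alpha, TRAV6-7-DV9 and TRAJ37: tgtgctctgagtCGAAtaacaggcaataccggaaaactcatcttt
pair 2 second alpha, TRAV9-2 and TRAJ42: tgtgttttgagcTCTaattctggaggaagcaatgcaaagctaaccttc
pair 2 beta, TRBV3 and TRBJ2-5: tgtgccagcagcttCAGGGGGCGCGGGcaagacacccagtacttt
pair 3 first alpha, TRAV15-2-DV6-2 and TRAJ56: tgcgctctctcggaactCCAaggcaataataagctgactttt
pair 3 second alpha, TRAV7-6 and TRAJ57: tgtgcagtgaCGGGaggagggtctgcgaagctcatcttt
pair 3 beta, TRBV12-2+TRBV13-2 and TRBJ1-4: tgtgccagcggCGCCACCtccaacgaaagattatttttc
pair 4 first alpha, TRAV4-4-DV10 and TRAJ56: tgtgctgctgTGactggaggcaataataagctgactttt
pair 4 second alpha, TRAV12D-2 and TRAJ42: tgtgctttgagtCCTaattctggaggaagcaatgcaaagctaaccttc
pair 4 beta, TRBV12-2+TRBV13-2 and TRBJ2-5: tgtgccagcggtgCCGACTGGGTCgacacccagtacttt
pair 5 first alpha, TRAV5-4 and TRAJ30: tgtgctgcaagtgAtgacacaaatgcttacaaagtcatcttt
pair 5 second alpha, TRAV6-4 and TRAJ22: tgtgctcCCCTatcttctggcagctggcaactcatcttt
pair 5 beta, TRBV13-1 and TRBJ1-6: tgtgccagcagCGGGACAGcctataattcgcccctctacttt
pair 6 first alpha, TRAV6-3 and TRAJ56: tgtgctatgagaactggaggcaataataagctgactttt
pair 6 second alpha, TRAV12-2 and TRAJ35: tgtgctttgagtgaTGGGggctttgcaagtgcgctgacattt
pair 6 beta, TRBV2 and TRBJ1-1: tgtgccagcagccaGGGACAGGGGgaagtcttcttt
pair 7 first alpha, TRAV14N-3 and TRAJ31: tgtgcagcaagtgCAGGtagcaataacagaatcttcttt
pair 7 second alpha, TRAV7D-2 and TRAJ35: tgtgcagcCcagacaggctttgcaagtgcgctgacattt
pair 7 beta, TRBV2 and TRBJ2-4: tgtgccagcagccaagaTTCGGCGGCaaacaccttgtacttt

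The second chain had more bases outside germline than the first in 5 of the 7 pairs and fewer in 2. Pair 6 had 0 such bases in the first chain and 4 in the second, and pair 7 had 4 and 1. A chain without added bases can be made again in unrelated cells, and a chain with several such bases less readily, so the beta chain and both alpha chains together identify the clone. In all 274 cells the median number of bases outside germline was 2 (2 to 3) in the greater chain, 3 (3 to 3) in the lesser chain and 2 (2 to 3) in the single chain, where the greater chain is the alpha chain with more UMIs. The median CDR3 was 39, 42 and 42 nucleotides long in the greater, lesser and single chains.

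These 7 beta clones comprised 21 cells. Both alpha chains were found in 15 of them, the first chain alone in 4, the second chain alone in 1 and no productive alpha chain in 1. None of the 21 cells held an alpha chain outside the pair. Pair 1 was the largest clone. Its 3 cells with both chains had 4 and 3, 2 and 1, and 1 and 1 UMIs of the first and second chain, 2 further cells had 3 and 2 UMIs of the first chain alone, and 1 cell had 4 UMIs of the second chain alone. Within this clone, then, either chain was missed in some cells and each was seen alone.

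Pair 2 was found in 2 cells, with 6 and 2 UMIs and with 2 and 1 UMIs. Its clone held 2 cells with the first chain alone, at 6 and 1 UMIs, and the cell without an alpha chain had 4 beta UMIs. Pairs 3 to 7 were each found in 2 cells, and no further cell had their beta chain. The 2 cells of pair 4 were Treg cells with 8 and 3 and with 7 and 4 UMIs, the 2 cells of pair 6 were Treg cells with 5 and 4 UMIs each, and the 2 cells of pair 5 were CD8 cells with 6 and 3 and with 2 and 2 UMIs. No clone of a pair mixed CD8 cells with Treg or CD4 conventional cells. The clone of pair 2 held 1 Treg cell, with 4401 gene expression UMIs, and 2 CD4 conventional cells, with 2078 and 1784. The latter label means that no Foxp3 UMI was captured, so a missed Foxp3 transcript and a clone of 2 lineages were not told apart. Of the 16 bases of the barcode, at least 11 differed between cells of the same pair. Cell Ranger, the software that assembled the contigs, placed these 21 cells in 11 clonotypes, because it keeps cells with different sets of chains apart.

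**Figure D1:**
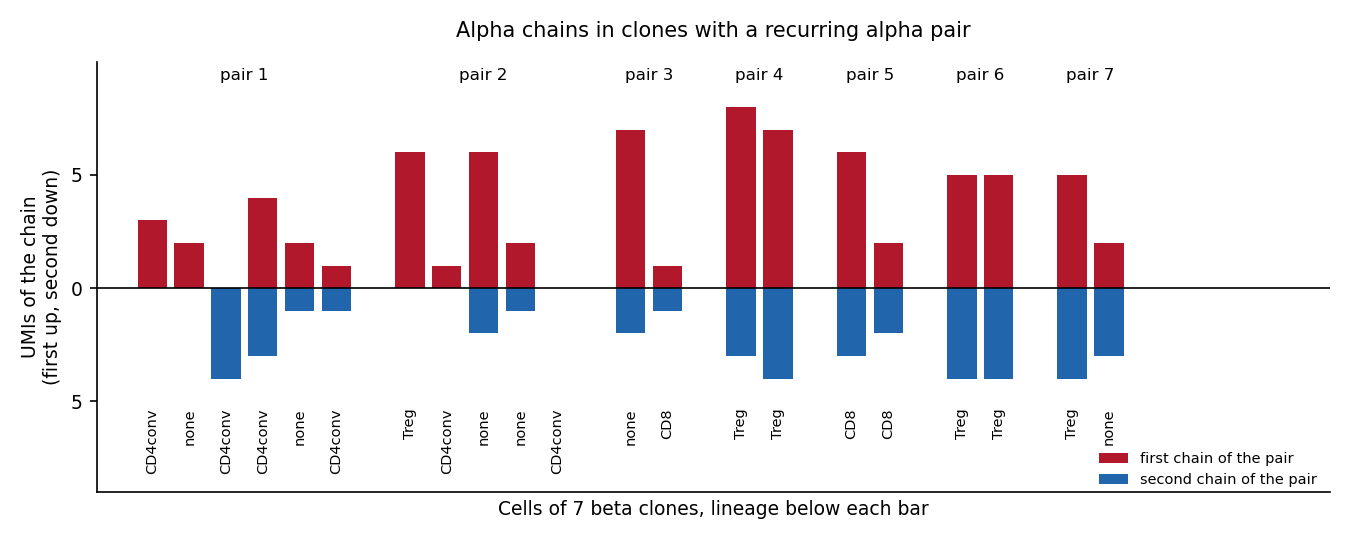
UMIs of the first alpha chain (up, red) and the second alpha chain (down, blue) in each of the 21 cells of the 7 beta clones with a recurring alpha pair, with the lineage of the cell by its own marker UMIs under each bar ("none" means no marker UMI). Both chains are seen in 15 cells, and the last cell of pair 2 has no alpha chain.

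In the contigs themselves, which chose the members and are therefore a description, the greater alpha chain had a median of 3 UMIs (range 1 to 19) and the lesser a median of 2 UMIs (range 1 to 8). The single chain of single-alpha cells had a median of 2 UMIs (range 1 to 18), and the beta chain had a median of 5 UMIs in both groups. The lesser chain made up a median of 40% of a cell's alpha UMIs (40 to 41.7), with a lowest value of 17.4%. Both chains had equal UMIs in 93 cells. In 111 cells (40.5%; 34.6 to 46.6) the lesser chain rested on 1 UMI, and in 59 of these the greater chain did too, so that these cells were members by 1 captured molecule. In 163 cells (59.5%) both chains had at least 2 UMIs. Of the single chains, 24.9% had 1 UMI.

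The balance of the chains differed little between lineages. Lineage was set by a cell's own UMIs. CD8 cells had a UMI of Cd8a or Cd8b1, which encode the CD8 coreceptor, and none of Cd4 or Foxp3. Treg cells had one of Foxp3, the defining transcription factor of regulatory T cells, and none of the CD8 genes. CD4 conventional cells had one of Cd4 and none of Foxp3 or the CD8 genes, so they can include Treg cells with missed Foxp3 RNA. Cells with markers of opposing lineages, or with no marker UMI, belonged to none of these lineages. The lesser chain made up a median of 42.9% (37.5 to 50) of alpha UMIs in 35 CD8 cells, 40% (33.3 to 40) in 111 Treg cells and 40% (33.3 to 42.9) in 54 CD4 conventional cells. The greater and lesser chains had medians of 2 and 1 UMIs in CD8 cells, 3 and 2 in Treg cells, and 3 and 2 in CD4 conventional cells.

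**Figure D2:**
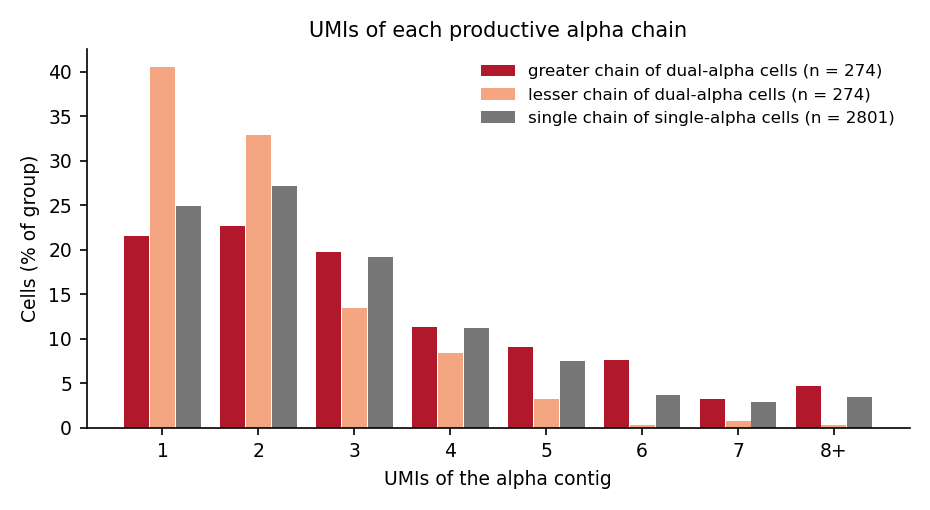
Share of cells (%) by the number of UMIs of the alpha contig, for the greater and lesser chains of 274 dual-alpha cells and the single chain of 2801 single-alpha cells. The lesser chain rests on 1 UMI in 40.5% of cells, against 24.9% for the single chain.

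A second alpha chain was found more often in cells with more RNA. Dual-alpha cells had a median of 3806.5 gene expression UMIs (3458 to 4171) and 1463 genes, against 3114 UMIs (3042 to 3195) and 1261 genes in single-alpha cells. The upper limit on detected genes bears on these medians, since without it there were 339 dual-alpha and 3126 single-alpha cells. Cells with 2 productive beta chains, a group that takes in doublets, had medians of 4689 UMIs with 1 alpha chain and 5754 UMIs with 2 alpha chains. The share of dual-alpha cells was 6.80% (3.77 to 11.1) among cells with fewer than 1500 UMIs, 8.02% (6.05 to 10.4) from 3000 to below 4000 UMIs and 13.7% (10.3 to 17.9) with 6000 or more. The share with 6000 or more UMIs exceeded the share below 3000 UMIs by 6.95 percentage points (3.19 to 11.2; square-and-add interval). By UMIs of the beta contig, the share was 4.95% (2.50 to 8.69) at 1 UMI and 11.1% (8.996 to 13.4) at 8 or more. Depth and the presence of a second chain cannot be told apart in these data.

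By lineage, 111 of 1035 Treg cells (10.7%; 8.91 to 12.8), 54 of 638 CD4 conventional cells (8.46%; 6.42 to 10.9) and 35 of 474 CD8 cells (7.38%; 5.20 to 10.1) had a second alpha chain. The share was 3.34 percentage points (0.0549 to 6.34) higher in Treg than in CD8 cells, and 2.26 points (−0.779 to 5.15) separated Treg from CD4 conventional cells. CD8 cells had the most UMIs per cell, with a median of 3994 among single-alpha cells against 3358 in Treg and 2971 in CD4 conventional cells. In the TCR library the mean was 2.68 UMIs of the single alpha chain in CD8, 3.46 in Treg and 2.71 in CD4 conventional cells. The part of either depth in these shares was not tested. Below 3000 UMIs the difference between Treg and CD8 cells was 2.13 points (−3.24 to 6.36), and from 3000 UMIs up it was 4.38 points (0.0131 to 8.36). With lineage taken from 1500 UMIs drawn at random from each cell, the shares were 10.8% in Treg, 8.31% in CD8 and 7.44% in CD4 conventional cells, so the order of the last 2 changed.

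Cells with markers of opposing lineages were more frequent among dual-alpha cells. A UMI of a CD8 gene together with one of Cd4 or Foxp3 was found in 38 of 274 dual-alpha cells (13.9%; 10.0 to 18.5) and in 208 of 2801 single-alpha cells (7.43%; 6.48 to 8.46). After thinning to 1500 UMIs, which left out 14 and 192 shallower cells, the shares were 5.77% (3.26 to 9.34) and 2.99% (2.37 to 3.72), a difference of 2.78 points (0.171 to 6.40). Cells with 2 beta chains had thinned shares of 4.78% with 1 alpha chain and 7.14% (2.36 to 15.9) with 2 alpha chains. Of the cells with opposing markers, 15.4% (11.2 to 20.6) were dual-alpha. Without all such cells, dual-alpha cells made up 8.34% of the remainder. Cells with no UMI of the 4 marker genes had the lowest share, 5.28% (3.72 to 7.23). Their part in the counts of dual-alpha cells was not tested.

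**Figure D3:**
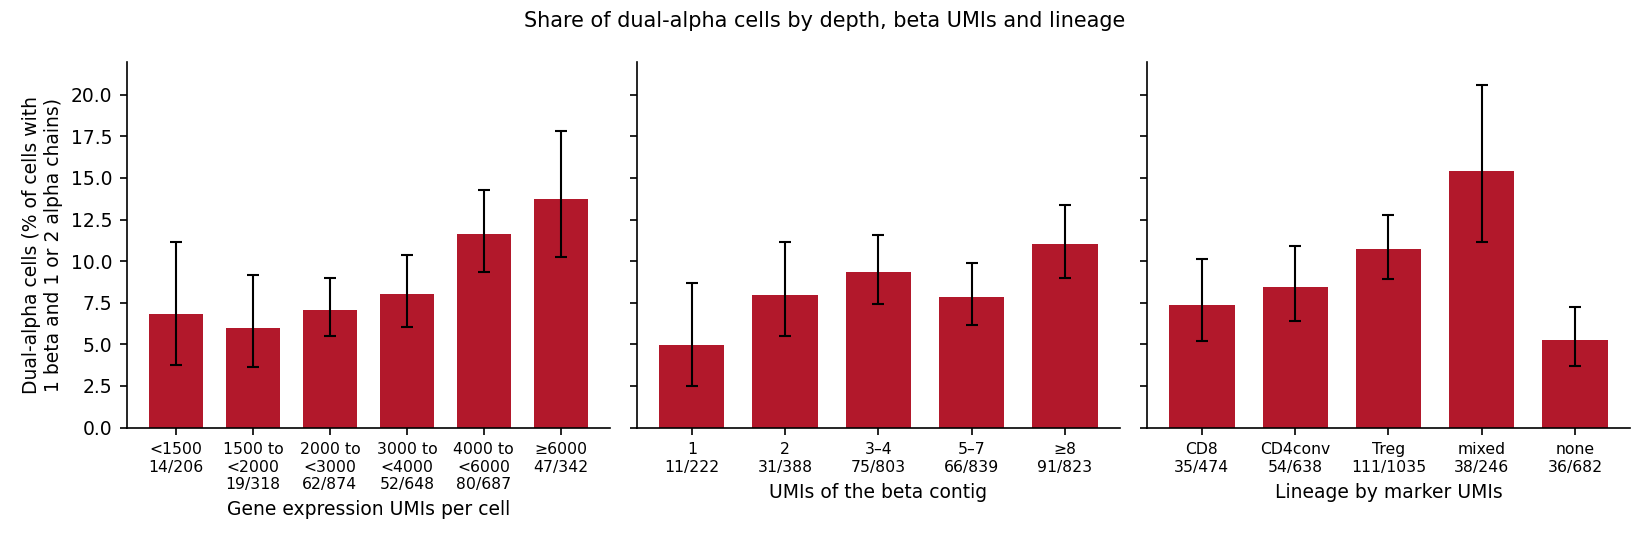
Dual-alpha cells as a share (%) of cells with 1 beta and 1 or 2 alpha chains, by gene expression UMIs per cell (left), UMIs of the beta contig (middle) and lineage (right), with exact 95% intervals and the counts under each bar. The share goes from 6.80% in the shallowest to 13.7% in the deepest cells, and cells with markers of opposing lineages ("mixed") have 15.4%.

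The gene expression library gave a second readout of the same chains, since it counted reads on Trav genes without contig assembly. It was made from the same barcoded cDNA as the TCR library, so it checks the assembly and the V segment but not whether both RNAs came from 1 cell. In the 247 dual-alpha cells whose chains belonged to different V families, the Trav gene of the greater chain had a UMI in 152 cells (61.5%; 55.2 to 67.6) and that of the lesser chain in 153 cells (61.9%; 55.6 to 68.0). In single-alpha cells it was 1719 of 2801 (61.4%; 59.5 to 63.2). Single-alpha cells of other V families had a UMI of these genes in 0.434% of cases. Free RNA, misassigned reads and a missed second alpha chain were not separated within that share. At 1500 UMIs per cell the shares were 41.9% for the greater, 39.7% for the lesser and 41.4% for the single chain, and the lesser differed from the single chain by −1.69 points (−8.29 to 5.16). The lesser chain was thus seen in this library as often as the single chain, within that interval.

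Where the lesser chain rested on 1 UMI, its Trav gene was seen in 55 of 97 cells (56.7%; 46.3 to 66.7), and in 98 of 150 cells (65.3%; 57.1 to 72.9) where it had at least 2. Both Trav genes were seen in 100 of the 247 cells (40.5%) and neither in 42 (17.0%). With all genes of a V family summed, which allows for reads split between near-identical Trav copies, the shares were 66.0% for the greater, 64.4% for the lesser and 65.5% for the single chain, with a background of 2.50%.

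A further readout came from cells that shared the beta chain. Of the dual-alpha cells, 55, from 43 beta clones, had at least 1 partner with the same TRBV, TRBJ and beta CDR3 nucleotides. A partner held the lesser chain in 36 of the 55 (65.5%; 51.4 to 77.8) and the greater chain in 31 (56.4%; 42.3 to 69.7). Taken over all partners of a cell, both chains were held in 19, the greater alone in 12, the lesser alone in 17 and neither in 7. The same partner held both chains in 15, which are the cells of the recurring pairs. The lesser chain was met again in clone mates in 5 more cells than the greater one, with intervals that overlap widely. For single-alpha cells, 421 of 516 (81.6%; 78.0 to 84.8) had a partner with their chain, which is 16.1 points (3.31 to 30.5) above the lesser chain. Clone mates were counted as separate cells although a shared chain is mutual, so the intervals of these partner shares are too narrow. The number of partners was not matched between the groups. The partner held the lesser chain in 10 of 19 cells where it had 1 UMI and in 26 of 36 where it had at least 2, a difference of 19.6 points (−9.19 to 47.0). Against partners with exactly 1 alpha chain, the lesser chain was held in 23 of 41 cases and the greater in 20.

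An alpha CDR3 was also looked for in barcodes with another beta chain, where it could be a chain made independently in another clone or free RNA. The lesser chain was found in such a barcode in 50 of 274 cells (18.2%; 13.9 to 23.3), the greater in 58 (21.2%; 16.5 to 26.5) and the single chain in 492 of 2801 (17.6%; 16.2 to 19.0). Lesser chains with 1 UMI were found there in 25.2% (17.5 to 34.4) and those with at least 2 UMIs in 13.5% (8.66 to 19.7).

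**Figure D4:**
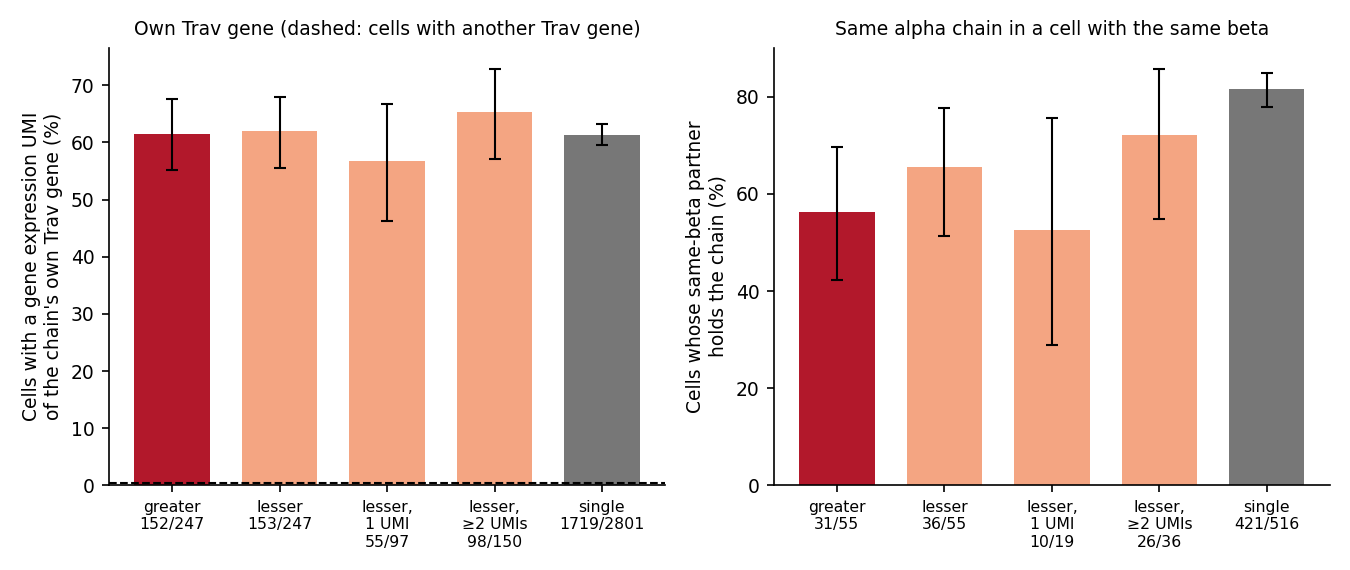
Left, share (%) of cells with a gene expression UMI of the Trav gene used by the greater, lesser or single alpha chain, with the background in cells of other V families dashed at 0.434%. Right, share (%) of cells whose same-beta partner holds the chain; bars carry exact 95% intervals, and the lesser chain stands at 65.5% against 81.6% for the single chain.

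Dual-alpha cells were found in expanded clones as often as single-alpha cells when clones were set by the beta chain alone, which does not use the alpha chains. A clone of at least 2 cells held 58 of 274 dual-alpha cells (21.2%; 16.5 to 26.5) and 605 of 2801 single-alpha cells (21.6%; 20.1 to 23.2), a difference of −0.432 points (−5.37 to 5.10). The shares were 31.4% and 35.3% in CD8 cells, 14.4% and 17.6% in Treg cells, and 22.2% and 21.4% in CD4 conventional cells. With Cell Ranger's clonotypes, 5.47% (3.10 to 8.87) of dual-alpha and 14.6% (13.3 to 16.001) of single-alpha cells were in expanded clonotypes, a difference of −9.16 points (−11.9 to −5.53). Joining cells with the same beta and at least 1 shared alpha chain gave 17.5% and 15.0%. Cell Ranger's rule split the clones of pairs 1 and 2 into 3 clonotypes each.

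The 2 alpha chains of a cell used J segments near each other. The mouse alpha locus lies on the forward strand of chromosome 14 in GRCm38, with Trav genes at chr14:52427928-53977678, Traj genes at chr14:54155005-54218842 and the constant gene Trac at chr14:54220521-54224206. Traj numbers fall along the strand, from Traj61 next to the Trav genes to Traj1 next to Trac, so the difference of the numbers gives the distance in segments. The median distance between the chains of a dual-alpha cell was 9 segments (8 to 11), against 14 between chains of different dual-alpha cells. Within 5 segments were 36.1% of cells, against 21.95% between cells, and 20 or more segments apart were 16.8% against 33.2%. Across the 274 cells the TRAJ numbers had a Pearson r of 0.42 and a Spearman rho of 0.41. This is a description over cells that share 1 library, 15 of which belong to 7 clones, and with 1 cell for each pair of chains r was 0.40 (n = 266).

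By lineage, r was 0.46 in 35 CD8 cells, 0.28 in 111 Treg cells and 0.65 in 54 CD4 conventional cells. The median distance was 11 segments (8 to 14) in Treg and 7 (5 to 10) in CD4 conventional cells, against 14 and 12 between cells of the lineage. In CD8 cells it was 12 (9 to 17) against 14, and 20% of CD8 cells had their chains within 5 segments against 21.7% between cells. Over all lineages r was 0.52 in the 163 cells with at least 2 UMIs of both chains and 0.32 in the 111 cells whose lesser chain had 1 UMI, and the median distances were 8 (6 to 10) and 12 (9 to 15). In 450 single-alpha cells that also had 1 alpha contig not called productive, r was 0.56 and the median distance 8 (7 to 9). Whether such a contig was a failed rearrangement was not tested. In 25 of these cells both contigs had the same J segment. Without those cells r was 0.53 and the median distance 8 (7 to 9) in 425 cells. In the 71 cells with 2 beta and 2 alpha chains, r was 0.27 and the median distance 10 (7 to 17).

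Where the greater chain used the upstream part of the Traj cluster (TRAJ41 and above), the lesser chain did so in 22 of 47 cells (46.8%; 32.1 to 61.9), against 20.4% of all lesser chains. Where the greater chain used the downstream part (TRAJ20 and below), the lesser did so in 32 of 74 cells (43.2%; 31.8 to 55.3), against 26.3% of all. Upstream, middle and downstream parts were used by 17.2%, 55.8% and 27.01% of greater, 20.4%, 53.3% and 26.3% of lesser and 21.7%, 49.8% and 28.5% of single chains. Positions of the V segments were less alike, with r of 0.19 and a median distance of 239.5 kb against 328.4 kb between cells. The same TRAV gene was used by both chains in 11 cells and the same TRAJ gene in 9, and no cell had the same CDR3 in both. TRAJ31 was the most used J segment, in 35 of the 548 chains (6.39%; 4.49 to 8.77) and in 5.32% of single chains. TRAV14N-3 was used in 25 of 548 chains (4.56%; 2.97 to 6.66) and in 2.28% (1.76 to 2.91) of single chains, the widest gap among the V segments most used by dual-alpha cells.

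**Figure D5:**
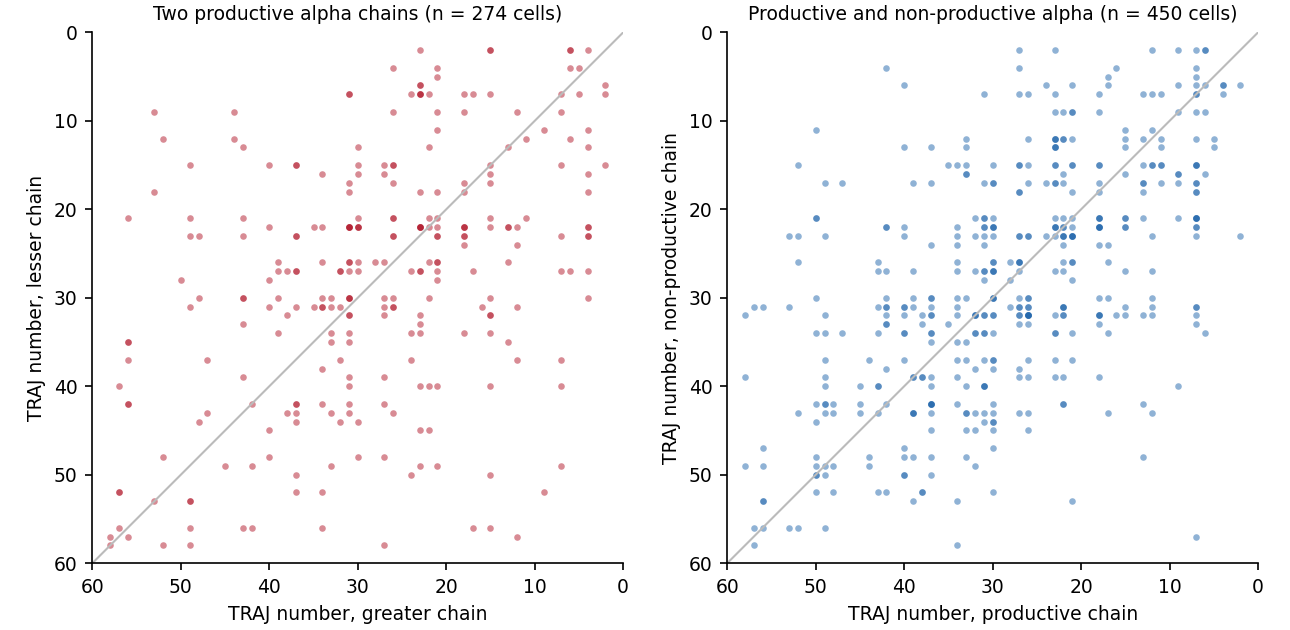
TRAJ numbers of both alpha chains, with 1 point per cell and the line of equal numbers in grey. Left, greater against lesser productive chain in 274 dual-alpha cells (r = 0.42). Right, productive against non-productive chain in 450 single-alpha cells (r = 0.56), of which 25 have the same J segment in both contigs. In both panels, the points gather along the line.

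In 5 dual-alpha cells 1 of the chains joined TRAV11 to TRAJ18, the join of invariant natural killer T (iNKT) cells, which see lipids on CD1d. They are printed because the invariant join is nearly fixed, so the second chain is what sets these cells apart. Capitals have the same meaning as above.
invariant 1, TRAV11 and TRAJ18: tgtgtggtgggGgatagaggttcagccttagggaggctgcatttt
invariant 1 other alpha, TRAV14-3 and TRAJ31: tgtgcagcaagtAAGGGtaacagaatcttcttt
invariant 2, TRAV11 and TRAJ18: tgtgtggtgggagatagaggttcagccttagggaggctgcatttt
invariant 2 other alpha, TRAV3D-3 and TRAJ7: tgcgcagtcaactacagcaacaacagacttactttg
invariant 3, TRAV11 and TRAJ18: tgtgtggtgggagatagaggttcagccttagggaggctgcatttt
invariant 3 other alpha, TRAV11 and TRAJ34: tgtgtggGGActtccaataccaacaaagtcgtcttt
invariant 4, TRAV11 and TRAJ18: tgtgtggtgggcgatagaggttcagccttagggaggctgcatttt
invariant 4 other alpha, TRAV11 and TRAJ17: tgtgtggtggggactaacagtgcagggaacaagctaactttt
invariant 5, TRAV11 and TRAJ18: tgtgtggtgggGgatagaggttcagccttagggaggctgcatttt
invariant 5 other alpha, TRAV6-3 and TRAJ24: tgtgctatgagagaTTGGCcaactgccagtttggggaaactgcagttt

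The invariant chain was the greater chain in 4 of these cells, and it had 2 or 3 UMIs against 1 or 2 of the other chain. Cells with this join made up 1.82% (0.595 to 4.21) of dual-alpha and 1.75% (1.30 to 2.31) of single-alpha cells. All 5 had a Cd4 UMI without Foxp3 or CD8 genes. Zbtb16, which encodes the transcription factor PLZF that defines innate-like T cells, had a UMI in 1 of the 5, in 13 of the 49 single-alpha cells with the join and in 11 of the other 2752 single-alpha cells. Only cells 1 and 2 had a beta chain with TRBV13-2, the former with TRBV12-2 in the same call, and TRBV13-2 is the segment most iNKT cells of the mouse use. Cells 3 and 4 had TRBV29, another segment known from mouse iNKT cells, and cell 5 had TRBV15.

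Expression was compared between dual-alpha and single-alpha cells as CPM of UMIs summed over cells, first over all cells and then within lineages. Over all cells, 46 of 5353 genes with at least 200 UMIs were at least 1.5-fold higher (0.859%) and 96 at least 1.5-fold lower (1.79%) in dual-alpha cells. The 2 groups come from 1 pool, so a ratio between them has no replicate behind it. In CD8 cells (35 against 439), 29 of 1191 such genes were at least 1.5-fold higher (2.43%) and 60 at least 1.5-fold lower (5.04%). In Treg cells (111 against 924) it was 13 (0.508%) and 57 (2.23%) of 2560 genes, and in CD4 conventional cells (54 against 584) 24 (1.8%) and 37 (2.78%) of 1332 genes. Median ratios over these genes lay between 0.986 and 1.01. The more dual-alpha cells a lineage held, the smaller was the share of genes past the fold.

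Genes of the TCR complex were close between the groups. The 7 genes of the TCR constant chains and CD3 summed to 4977 CPM in dual-alpha and 4565 CPM in single-alpha cells of all lineages, a ratio of 1.09 (1.06 to 1.12), and none of the 7 was 1.5-fold different in any lineage. Lists like this were counted over genes with at least 50 UMIs, of which, over all cells, 4% were at least 1.5-fold higher and 7.39% at least 1.5-fold lower. Trac, the constant part of the alpha chain, was at 681 against 555 CPM, a ratio of 1.23 (1.14 to 1.32). Its ratio was 1.45 (1.16 to 1.78) in CD8, 1.29 (1.07 to 1.55) in CD4 conventional and 1.07 (0.951 to 1.20) in Treg cells. The beta constant genes Trbc1 and Trbc2 had ratios of 0.947 (0.822 to 1.09) and 0.958 (0.866 to 1.06). More alpha RNA thus went with the second alpha contig over all cells, in CD8 cells and in CD4 conventional cells. The Trac interval in Treg cells and both beta intervals included 1. Among cells with 2000 to 4000 UMIs the Trac ratios were 1.24 in CD8, 1.13 in CD4 conventional and 1.08 in Treg cells. They rested on 23, 53 and 106 Trac UMIs in dual-alpha cells. The part of the makeup of the lineages in the ratio over all cells was not tested. The alpha transcripts are those from which the contigs were made, so the Trac ratio is a description.

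Of 15 genes that respond to TCR signals, 13 had at least 50 UMIs in each lineage. In Treg cells 1 of the 13 was 1.5-fold lower and none higher, where 9.91% of all 6386 genes compared were lower and 4.62% higher, with a median ratio of 0.959 against 0.980. That gene was Nr4a1, which encodes the immediate early factor Nur77, at 145 CPM (67 UMIs) against 244 CPM, a ratio of 0.594 (0.456 to 0.762). Cd69, an early activation marker, had a ratio of 0.773 (0.633 to 0.936), and Cd5, a surface gauge of TCR signal strength, 0.822 (0.696 to 0.967). Among cells with 2000 to 4000 UMIs these ratios were 0.516 for Nr4a1, 0.684 for Cd69 and 0.985 for Cd5. In CD8 cells 6 of the 13 were 1.5-fold lower, namely Nr4a1, Nr4a2, Egr1, Irf4, Myc and Nfkbid, where 15.2% of all 4251 genes compared were lower and 11.5% higher, and the median was 0.797 against 1.01. Each of the 6 rested on 2 to 18 UMIs in dual-alpha cells and had an interval that included 1. Nr4a1 had a ratio of 0.605 (0.334 to 1.02), which was 0.813 among CD8 cells with 2000 to 4000 UMIs. In CD4 conventional cells 1 was higher and 1 lower, where 8.64% of all 4642 genes compared were higher and 13.6% lower, with a median of 1.16, and Nr4a1 had a ratio of 0.671 (0.410 to 1.04). Proximal signaling genes, 14 of 14 compared, had median ratios of 1.02 in CD8, 0.956 in Treg and 0.951 in CD4 conventional cells. Cblb and Cbl, ubiquitin ligases that restrain TCR signaling, were past 1.5-fold lower in CD8 cells, at 7 and 6 UMIs with ratios of 0.493 (0.195 to 1.04) and 0.456 (0.165 to 1.02). Cblb had a ratio of 1.53 (1.12 to 2.05) in Treg cells. Ubash3a, another negative regulator, had 7 UMIs and a ratio of 0.583 (0.229 to 1.24) in CD4 conventional cells.

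In CD8 cells the highest ratios were those of Gzmc, Atp2b1, Ssu72, Fam96a and Sin3b, and the lowest those of Ifitm1, Mt1, Ifng, Tcf7 and Phlda1. Gzmc, a granzyme, had a ratio of 5.29 (4.15 to 6.70), but 92 of its 105 UMIs came from 1 cell, and without that cell the ratio was 0.686. Atp2b1, a calcium pump of the plasma membrane, had 34 UMIs in 19 of 35 cells and a ratio of 2.19. Ifng, the effector cytokine interferon-γ, was at 112 against 311 CPM, a ratio of 0.358 (0.214 to 0.564), which was 0.773 with lineage from thinned UMIs. A UMI of Ifng was found about as often in both groups, in 12 of 35 dual-alpha (34.3%) and 154 of 439 single-alpha cells (35.1%). The groups thus differed in the UMIs of Ifng per cell that had any. Mt1, a metallothionein, had 10 UMIs and a ratio of 0.301, which was 2.30 among cells with 2000 to 4000 UMIs. Tcf7, which encodes the memory and stem-like factor TCF-1, was at 52.9 against 138 CPM, a ratio of 0.382 (0.173 to 0.736). Of 12 effector and cytotoxic genes 3 were 1.5-fold lower (Ifng, Ccl3 and Tbx21) and 1 higher (Cx3cr1), with a median of 0.806, to be read beside the shares of all genes given above. Tbx21, a T-box factor of effector cells, rested on 4 UMIs (0.113 to 1.12) and Cx3cr1, a chemokine receptor, on 9 UMIs (0.730 to 3.39). Among quiescence and homing genes, Lef1 (1.54; 0.938 to 2.41) and S1pr1 (1.87; 1.03 to 3.19) were past 1.5-fold higher and Tcf7 and Satb1 (0.659; 0.372 to 1.09) past 1.5-fold lower. Lyz2, a myeloid gene, had 1 UMI in the 35 cells against 97 in the 439, a level below that of single-alpha cells.

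In Treg cells the highest ratios included those of Ccl4, Impa1, Slamf1 and Epc1, and the lowest those of Gm45716, Larp4b, Hnrnpll, Penk and Gstt2. Ccl4, an inflammatory chemokine, was at 1048 against 456 CPM, a ratio of 2.30 (2.07 to 2.55). Of its 486 UMIs 118 came from 1 cell, and the ratio without that cell was 1.76. It was 1.43 among cells with 2000 to 4000 UMIs and 3.70 with lineage from thinned UMIs. Penk, which encodes proenkephalin, was at 94.9 against 222 CPM, a ratio of 0.427 (0.308 to 0.579), with 33 of its 44 UMIs in 1 cell. Without that cell the Penk ratio was 0.109, and with lineage from thinned UMIs, which moves cells between lineages, it was 1.15. None of the 12 genes of Treg identity and activation was 1.5-fold different, with a median of 0.962, and Foxp3 was at 658 against 682 CPM. None of 7 inhibitory receptor genes was either, with a median of 1.01.

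In CD4 conventional cells the highest ratios were those of Ccl4, Dusp1, Stmn1, Itm2c and Arrb2, and the lowest those of Cxcl2, Penk, Lyz2, Ifitm3 and Idh3b. Dusp1, a phosphatase of MAP kinases, was at 669 against 366 CPM, a ratio of 1.83 (1.51 to 2.20), with UMIs in 36 of 54 cells. Ccl4 had a ratio of 2.33, or 1.25 without the cell that held 31 of its 65 UMIs and 0.942 with lineage from thinned UMIs. Lyz2 had 5 UMIs in dual-alpha cells, and its ratio was 0.233 over all depths but 3.63 among cells with 2000 to 4000 UMIs. Penk and Cxcl2 had 0 UMIs in the 54 dual-alpha cells, which allows up to 3 UMIs or 14.9 CPM, against 109 and 107 CPM in single-alpha cells. Of all 4642 genes compared in CD4 conventional cells, 8.64% were at least 1.5-fold higher and 13.6% lower. Of 6 cell cycle genes compared, 5 were 1.5-fold higher (Mki67, Top2a, Birc5, Stmn1 and Pcna), with a median of 1.66. Without the highest cell of each gene, the ratios of the first 4 were between 0.811 and 0.997, whereas Pcna, a clamp of DNA replication, stayed at 1.58. In Treg cells 2 of 8 cell cycle genes were 1.5-fold lower, where 9.91% of all 6386 genes compared were lower. In CD8 cells 2 of 8 were higher, where 11.5% of all 4251 genes compared were higher.

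Genes of other cells in the sorted pool were compared as summed levels over all lineages. Macrophage and monocyte genes (9) summed to 455 CPM in dual-alpha and 523 CPM in single-alpha cells, a ratio of 0.869 (0.793 to 0.951), with Lyz2 and Apoe 1.5-fold lower. Most of that sum was Ly6c2, at 457 of the dual-alpha UMIs and 4160 of the single-alpha UMIs, a gene that CD8 T cells also express. The other 8 genes summed to 55.9 and 106 CPM, a ratio of 0.527 (0.403 to 0.679) over all cells, 0.264 (0.105 to 0.550) in CD8, 0.203 (0.0808 to 0.422) in CD4 conventional and 1.37 (0.863 to 2.09) in Treg cells. Dendritic cell genes (7) summed to 24.4 and 43.5 CPM, a ratio of 0.561 (0.369 to 0.823), and B cell genes (6) to 305 and 269 CPM, a ratio of 1.13 (1.01 to 1.27). Most of the B cell sum was Ighm, at 333 of 349 dual-alpha UMIs and 2508 of 2682 single-alpha UMIs. Within lineages the B cell ratio was 0.459 (0.207 to 0.888) in CD8, 0.958 (0.822 to 1.11) in Treg and 0.919 (0.614 to 1.33) in CD4 conventional cells. Melanoma genes (7), which mark RNA of the tumor cells, summed to 20.95 and 14.0 CPM, a ratio of 1.49 (0.925 to 2.31). Free RNA and a tumor cell in the same droplet were not told apart. Erythroid genes had 1 UMI in dual-alpha cells, and gamma delta TCR genes had 3. The part of RNA of these cells in the results was not tested.

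Other groups of T cell genes are given beside the makeup of the lineages. Over all cells, Treg identity genes had a ratio of 1.16 (1.12 to 1.19) and inhibitory receptors 1.17 (1.12 to 1.22), where Treg cells made up 40.5% of dual-alpha and 32.99% of single-alpha cells. Within Treg cells these ratios were 0.968 and 0.965. Interferon-induced genes had a ratio of 1.12 (1.05 to 1.20) over all cells, with Oasl2 1.5-fold higher, and 1.07 (0.973 to 1.18) in Treg cells. Innate-like T cell genes had a ratio of 0.773 (0.656 to 0.905) over all cells and 0.608 (0.440 to 0.821) in CD8 cells. Over all cells 3 of 7 compared were 1.5-fold lower (Klrb1c, Xcl1 and Klra1), where 7.39% of all 8790 genes compared were lower. These 3 genes rested on 2, 23 and 3 UMIs in dual-alpha cells, and 11 of the Xcl1 UMIs came from 1 cell. The interval of Klrb1c (0.0410 to 1.32) included 1. Of the 10 genes of V(D)J recombination and thymic precursors, 3 had at least 50 UMIs over all cells, with a median ratio of 0.989. Themis, a regulator of thymic selection, had a ratio of 1.75 (1.10 to 2.68) in CD8 cells.

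By tumor, few members could be placed. Tag UMIs of 1 tumor were found in 47 dual-alpha cells (17.2%; 12.9 to 22.1) and in 11.8% (10.6 to 13.1) of single-alpha cells. Dual-alpha cells made up 40 of 327 cells tagged for B16 (12.2%; 8.88 to 16.3) and 7 of 51 tagged for B16–IL-33 (13.7%; 5.70 to 26.3), a difference of 1.49 points (−7.50 to 14.5), so a difference between tumors was not detectable at this depth. By single tag the shares were 5.17% (6 of 116 cells) and 16.4% (34 of 207) for B16, and 4.76% (1 of 21) and 20% (6 of 30) for B16–IL-33. The tags of 1 tumor thus lay further apart than the tumors, and an exact permutation test, two-sided, of 2 tags against 2 cannot give a p below 0.333. None of the cells with a recurring pair carried a tag.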

How the data were processed

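Sorted TCR-β-positive tumor T cells were hashtagged, pooled and run on the 10x 5′ kit as 1 pool. The authors deposited raw UMI counts per gene and barcode (combined human and mouse reference, mm10), raw UMI counts per hashtag, and counts of UMIs per filtered TCR contig. The submitters' processing notes name Cell Ranger 6.1.1 and the matrix header 3.1.0. The hashtag counter is not given in the sources used here. The gene expression library held 14035 barcodes and 43420305 mouse UMIs. Cells with 200 to 2500 genes and under 5% mitochondrial UMIs were kept, and barcodes were joined to productive contigs. Ties between alpha chains went to the contig with more reads. A tumor was given where all tag UMIs came from tags of 1 tumor, in most cases 1 UMI. No doublet caller was run. Coordinates and germline segments came from GENCODE vM21 (GRCm38). Intervals (SciPy 1.17.1) are exact binomial for shares, exact Poisson for CPM (UMIs times 1000000 over the group's UMIs), conditional exact for ratios, square-and-add for differences and order statistics for medians. Ratios used genes with at least 200 UMIs (list genes 50), leaving out TCR segment and mitochondrial genes. Genes named are those of the lists and the 5 highest and 5 lowest ratios per lineage, plus Zbtb16 and marker genes. Members and lists were chosen with earlier results of these data known. The ratio was tested on simulated Poisson counts. These had no clumping of UMIs within cells, so that test does not cover genes with most UMIs in 1 cell. The results of 2 genes are not reported here. Whole-tumor and other single-cell libraries of the study were not analysed here. Alternatives covered cell limits, contig UMIs, depth, lineage and clone rules.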

Additional observations from a re-analysis of the deposited data

Results flagged for a closer look

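Outside the gene expression library, 39 barcodes of the TCR library had 1 beta and 2 alpha chains, so that they could not be given a lineage or a depth. The combined reference also recorded UMIs of human genes in these mouse cells, 157 in dual-alpha cells and 1349 in single-alpha cells, or 137 and 135 of 1000000 UMIs.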

How the results depend on the processing

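Of 76 values recomputed for the comparisons, 13 could not move by the alternative's own construction, and 57 of the other 63 stayed within the interval of the reported value (or, for gene counts, within 1.5 times it). Exceptions were as follows, and the cause was not tested. Contigs with at least 2 UMIs lowered the share of dual-alpha cells to 7.41% and that of CD8 cells to 4.56%, with 160 dual-alpha cells left. Cells with 2000 to 4000 UMIs gave a share of 7.55% and 46 CD8 genes past 1.5-fold, in place of 89. Cell Ranger clonotypes gave −9.16 points for expanded clones, and CPM averaged over cells gave 109 Treg genes past 1.5-fold, in place of 70. For the 30 genes with the highest or lowest ratios, 28 of 118 recomputed ratios left the interval of the reported ratio or crossed 1, and 29, of 18 genes, were no longer past 1.5-fold, among them Ifng (0.773) and Ifitm1 (0.984) in CD8 cells with lineage from thinned UMIs and Ccl4 (1.43) and Impa1 (1.09) in Treg cells at 2000 to 4000 UMIs. Ratios crossed 1 for Gzmc (0) and Mt1 (2.30) in CD8 cells and for Lyz2 (3.63) and Ifitm3 (1.03) in CD4 conventional cells at 2000 to 4000 UMIs. With lineage from thinned UMIs they did so for Penk in Treg cells (1.15) and for Ccl4 (0.942), Stmn1 (0.583) and Lyz2 (2.50) in CD4 conventional cells. Without the dual-alpha cell with the most UMIs, an alternative chosen after seeing the data, they did so for Gzmc in CD8 cells (0.686) and Stmn1 in CD4 conventional cells (0.811). Leaving out that cell lowered the ratios, so genes with the lowest ratios could not cross 1 or lose the fold by it. Their rows are among the 118, and no single-alpha cell was left out in the same way. Family sums of Trav genes, 1 cell for each pair, leaving out TRAJ18, partners with 1 alpha chain and lineage by at least 2 UMIs were also chosen after seeing the data, and none moved a value out of its interval; the myeloid sum without Ly6c2 was added likewise. No paired analysis was possible because there was 1 pool. With 35 CD8 cells and 55 cells with a partner, differences of several percentage points could not be resolved.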
